A study of Homo sapiens with 10 samples.

Results

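The miR-548 family was represented by 73 of the 2565 human miRNA probes on each array, taken as every probe whose name holds hsa-miR-548 followed by a letter, a hyphen or the end of the name. Of these, 67 probes carried 1 miRNA name, 4 carried 2 names and 2 carried 3 names, which together gave 80 miR-548 names. The RNA came from the human liver cancer line HuH-7, derived from a hepatocellular carcinoma, and was labelled with Cy5 and hybridised to 1-colour 3D-Gene miRNA arrays. A control group of 5 arrays came from cells kept for 96 h without drug, and a lenvatinib group of 5 arrays came from cells kept for 96 h with 1 µM lenvatinib, an inhibitor of VEGF, FGF and other receptor tyrosine kinases. Both groups were the same single line grown in the same medium with serum. Nothing in the labels assigns each array a culture of its own, so the p-values below measure only the spread between arrays, which may be technical. The extraction label speaks of serum, whereas the growth and treatment labels describe cultured cells.

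The miR-548 genes are primate miRNAs derived from MADE1, a short mariner-type transposon whose copies are near-perfect palindromes. A transcribed MADE1 copy folds back on itself into a hairpin that the miRNA-processing enzymes can cut, so copies spread through the genome gave many related miRNAs. Their mature sequences are rich in A and U and resemble one another closely. Many, but not all, differ from one another at the seed, the stretch at bases 2 to 8 by which a miRNA recognises its targets.

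The mature sequences below, from RefSeq on GRCh38.p14, are written 5′ to 3′ with the seed in capitals. A sequence was available for 52 of the 73 probes. The first set shows the tested members with a sequence, miR-548b-3p and miR-548w, with miR-548ak, which shares an unbroken run of 20 bases with miR-548w. The genes lie at chr6:119069062-119069083 on the minus strand within the bounds of FAM184A, chr16:26025246-26025268 on the plus strand within HS3ST4, and chr10:12130792-12130812 on the minus strand within SEC61A2, respectively.
miR-548b-3p: cAAGAACCucaguugcuuuugu
miR-548w: aAAAGUAAcugcgguuuuugccu
miR-548ak: aAAAGUAAcugcgguuuuuga

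The second set shows 2 further detected members each beside an undetected member that shares its seed. MiR-548k lies at chr11:70283986-70284007 on the plus strand within PPFIA1, and miR-548av-5p at chr18:72853365-72853382 on the minus strand within NETO1. All 18 bases of miR-548av-5p occur in miR-548k. MiR-548ai lies at chr6:99124624-99124645 on the plus strand, and the first of 2 loci of miR-548ag at chr4:60922623-60922643 on the plus strand.
miR-548k: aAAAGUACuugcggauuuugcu
miR-548av-5p: aAAAGUACuugcggauuu
miR-548ai: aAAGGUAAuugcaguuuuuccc
miR-548ag: aAAGGUAAuugugguuucugc

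The third set shows the palindrome. MiR-548aq-5p and miR-548aq-3p are the arms of 1 hairpin, at chr3:185767883-185767904 and chr3:185767847-185767868 on the minus strand within IGF2BP2. MiR-548g-5p, at chr4:147344681-147344703 on the minus strand, holds the reverse complement of all 22 bases of miR-548aq-3p. The deposited name of its probe also lists miR-548x-5p and miR-548aj-5p.
miR-548aq-5p: gAAAGUAAuugcuguuuuugcc
miR-548aq-3p: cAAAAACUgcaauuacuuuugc
miR-548g-5p: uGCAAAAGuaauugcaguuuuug

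Across the 54 names with a mature sequence, 50 loci were found on 21 chromosomes, and 34 of the loci lay within the bounds of a protein-coding gene. Host strand was not compared. The 52 probes carried 29 different seeds. The most frequent seed, AAAGUAA, was shared by 11 probes, of which 2 (miR-548w and miR-548aq-5p) were detected on any array. The seed AAAAACU was shared by 7 probes for 3p arms, none of which was detected. With a sequence for 71.2% of the family, under the 80% needed, a check of base composition against detection over the family was void.

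All brightness below is linear fluorescence in the scanner's own units. Each array carried 320 blank spots, and a probe was given a deposited background-subtracted value only where its raw brightness exceeded the blank mean by 2 SD of the blanks. The blank mean was 30.9 to 34.6 on the control arrays and 62.2 to 85.5 on the lenvatinib arrays, without overlap. Because the limit follows the blanks, it stood at 1.64 to 2.14 above the blank mean on control arrays and 3.79 to 6.55 above it on lenvatinib arrays. Array background and treatment cannot be told apart in this design. Between 1209 and 1546 miRNA probes were detected per array. Lenvatinib replicate 5 correlated at 0.938 to 0.947 with the other lenvatinib arrays, which correlated at 0.968 to 0.982 among themselves. The 4 hepatocyte marker miRNAs were detected on all 10 arrays. Of the blood-cell markers, 1 of 5 was detected on all 10 arrays, and their summed level was 13.2 to 20.2 on control and 8.07 to 59.6 on lenvatinib arrays. None of 5 muscle and neural markers and 4 of 5 stromal and endothelial markers were detected on all 10 arrays, with summed levels of 12.03 to 17.3 and 128 to 157 on control arrays and 6.13 to 35.2 and 320 to 554 on lenvatinib arrays. On at least 5 arrays, 3 of 5 blood-cell, 4 of 5 muscle and neural and all 5 stromal and endothelial markers were detected. These markers were thus not absent at this limit. The part of these other cell-type markers in the miR-548 values was not tested.

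Most of the family was not seen in HuH-7 under either condition. Of the 73 probes, 57 (78.1%) were detected on no array, against 584 of the 2492 other miRNA probes (23.4%). A further 7 members were detected on 1 array and 6 on 2 to 4 arrays. Only 1 member (1.37%) was detected on all 10 arrays, against 867 of the other probes (34.8%). These probes share much of their sequence and are not independent, so the shares are given as a description. The other probes were not matched to the family for base composition. Among probes with a sequence, the median share of G and C bases was 34.9% in the family and 52.2% in the others. The part of base composition in this contrast was not tested, so low detection is not shown to be particular to miR-548.

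Few miR-548 spots passed the limit on any array. On control arrays 1 to 5 it was 9.59%, 6.85%, 9.59%, 8.22% and 6.85% of the 73 probes, and on lenvatinib arrays 1 to 5 it was 6.85%, 9.59%, 4.11%, 5.48% and 2.74%. The blank spots themselves exceeded the limit at 4.69% to 8.75% on control and 6.88% to 9.06% on lenvatinib arrays. The miR-548 share was above the blank share on 5 of the 10 arrays, and the shares lay apart most on control replicate 1 (9.59% against 4.69% of blanks) and lenvatinib replicate 5 (2.74% against 8.75%). The other miRNA probes exceeded the limit at 54.3% ± 5.00 (SD, n = 5) on control and 53.0% ± 4.81 (SD, n = 5) on lenvatinib arrays. The 32 negative control spots of each array exceeded it at a mean of 26.9% in both groups. The 85 no-probe spots exceeded it at 11.8% to 42.4% on control and 9.41% to 60% on lenvatinib arrays. On lenvatinib replicate 5, 60% of no-probe spots passed, against 48.4% of the other miRNA probes. A spot over the limit is therefore not by itself evidence of a miRNA.

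**Figure D1:**
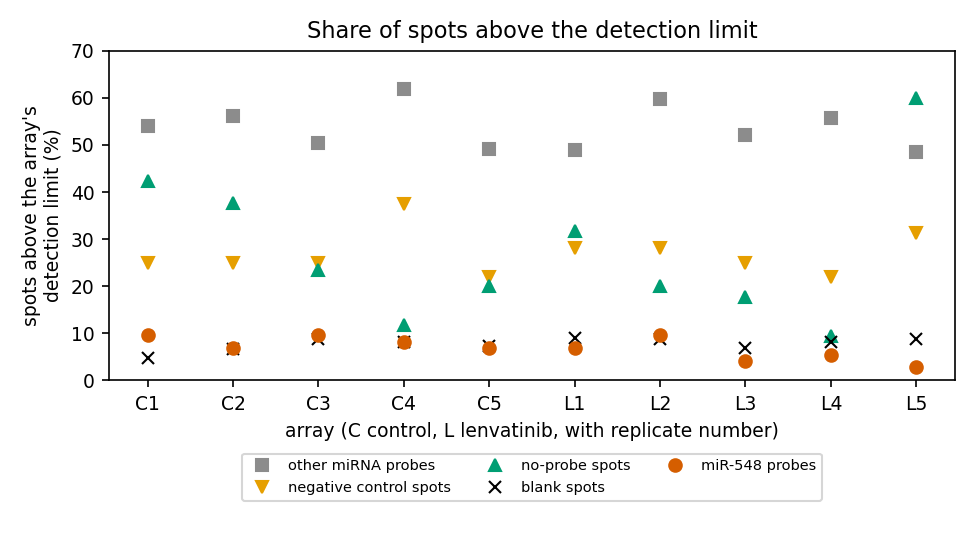
Share of spots above each array's own detection limit (percent, vertical axis) on the 5 control (C) and 5 lenvatinib (L) arrays, for miR-548 probes, other miRNA probes, and blank, no-probe and negative control spots. The miR-548 points lie between 2.74% and 9.59%, and the blank points between 4.69% and 9.06%, all below the other miRNA probes. The no-probe points lie between 9.41% and 60%, and on lenvatinib replicate 5 above the other miRNA probes.

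The median undetected member was dimmer than the blank mean on every array. Undetected and never detected probes were chosen by lying under the limit, which by itself lowers their values in part. Without this choice, the median of all 73 probes ran from −2.05 to −0.54 blank SDs on control and −1.27 to −0.93 on lenvatinib arrays. Of the 73, 10 to 25 lay above the blank mean on control and 17 to 21 on lenvatinib arrays, detected ones included. Expressed in SDs of the array's blanks, the median undetected miR-548 probe lay at −2.12, −0.68, −1.57, −0.77 and −2.13 on control arrays 1 to 5 and at −1.18, −1.47, −1.31, −1.39 and −1.03 on lenvatinib arrays 1 to 5. The median of the other undetected miRNA probes ranged from −0.58 to 0.26 on control and from −0.09 to 0.07 on lenvatinib arrays. The miR-548 median was the lower on 10 of 10 arrays. All 57 members never detected had a mean over the 10 arrays below the blank mean, with a median of −1.52 blank SDs and a range of −2.76 to −0.05. The same held for 500 of the 584 other probes never detected (85.6%), whose median was −0.86. A level of these members was therefore not detectable at this brightness, which is not a measure of absence.

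**Figure D2:**
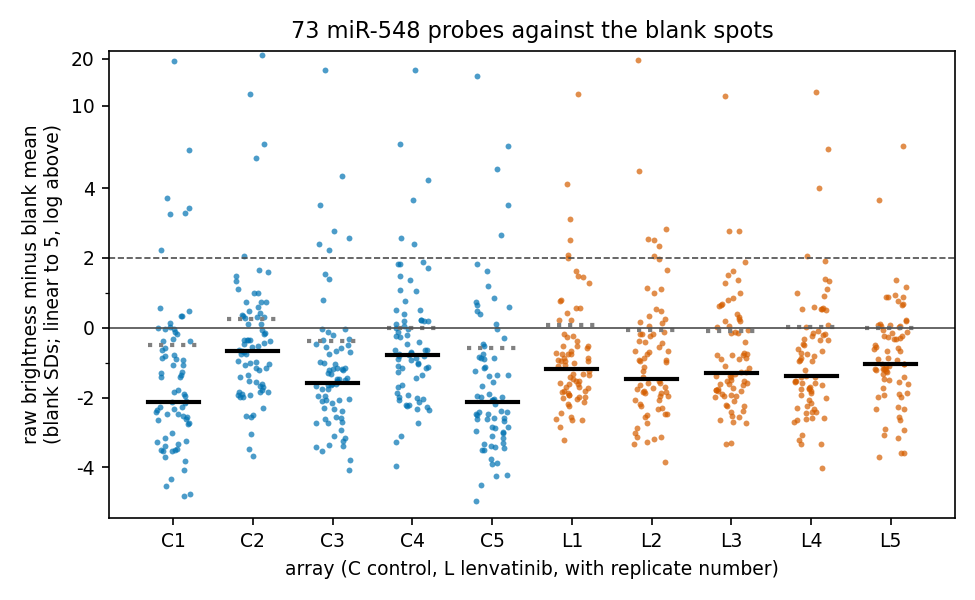
Raw brightness of each of the 73 miR-548 probes minus the blank mean of its array, in SDs of the blanks (vertical axis, linear up to 5 and logarithmic above), on the 5 control (C) and 5 lenvatinib (L) arrays, 1 point per probe. Black bars are the median of undetected miR-548 probes, dotted grey bars that of other undetected miRNA probes, and the dashed line is the limit of 2 SD; the black bar is the lower on every array.

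Detections were few and mostly shallow. Of 730 member spots, 51 were over the limit. The 3 members detected on at least 5 arrays (miR-548aa/miR-548t-3p, miR-548b-3p and miR-548w) gave 25 of these spots, and 13 other members gave 26. Of the 51 spots, 19 lay under 3 blank SDs and 16 over 5 blank SDs, 10 of the latter from miR-548aa/miR-548t-3p. By arm, 3 of 26 single-name 3p probes, 2 of 20 single-name 5p probes, 7 of 21 probes with no arm in the name and 4 of 6 probes with several names were detected at least once.

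Control arrays carried 6 ± 1 detected members (SD, n = 5) and lenvatinib arrays 4.20 ± 1.92 (SD, n = 5), with overlapping counts of 5 to 7 and 2 to 7. Since the limit was higher on lenvatinib arrays, these counts do not compare equal brightness. When the highest subtracted limit was used on every array, an alternative chosen after seeing the data, the order turned. It gave 1.20 ± 0.45 members on control and 2.80 ± 0.84 on lenvatinib arrays (SD, n = 5 each), with ranges of 1 to 2 and 2 to 4. Those values were not scaled between arrays. Without scaling, 1287 of all 1346 tested probes were called higher with lenvatinib and 2 lower. The turned order thus says nothing particular of the family, and this difference was not tested. Across the members, 7 were detected in both groups, 5 on control arrays only and 4 on lenvatinib arrays only. Those of one group only include all 7 members detected on a single array. The matching shares over all miRNA probes were not counted, so these counts only describe the members. No member was detected on all 5 arrays of one group and on none of the other.

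The only member seen on all 10 arrays was the probe for miR-548aa and miR-548t-3p, which carries both names. Its background-subtracted brightness was 15.8, 12.8, 17.1, 14.1 and 15.2 on control arrays 1 to 5 and 33.1, 37.3, 28.1, 29.2 and 18.3 on lenvatinib arrays 1 to 5. Before scaling, every lenvatinib array was thus brighter than every control array, as it was for the blanks. After quantile normalization the log2 intensities were 4.69, 4.33, 4.74, 4.35 and 4.61 in control and 4.55, 4.64, 4.18, 4.19 and 3.28 in lenvatinib arrays, so the groups overlapped and lenvatinib replicate 5 was the lowest. The change was −0.38 ± 0.24 log2 (SE, 95% interval −0.90 to 0.14), which did not pass the test (limma, adjusted p = 0.298). Without lenvatinib replicate 5 the change was −0.16. Here and below, RNA from bulk cells cannot tell fewer expressing cells from less miRNA per cell.

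MiR-548b-3p was the 1 member of the 3 tested that changed, and it fell. Of all 1346 probes tested, 21.5% were called, 12.1% higher and 9.36% lower, so 1 call among 3 members is a description and says nothing particular of the family. Its raw brightness above the blank mean was 4.27, 5.20, 4.40, 4.79 and 5.45 on control arrays 1 to 5, all detected. On lenvatinib arrays 1 to 5 it was 2.15, 4.83, 6.75, 12.8 and 2.55, of which replicates 1 and 5 were under the limit. The unscaled lenvatinib values therefore lay both below and above the control range.

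After normalization the log2 intensities of miR-548b-3p were 2.80, 2.93, 2.85, 2.72 and 3.15 in control arrays and 1.63, 1.71, 2.21, 3.01 and 1.63 in lenvatinib arrays, where 1.63 is the value given to an undetected probe. Of the lenvatinib arrays, 4 lay below every control array, and replicate 4 lay within the control range. The change was −0.85 ± 0.25 log2 (SE, 95% interval −1.40 to −0.30), a ratio of 0.554 (limma, adjusted p = 0.0317). The value rests in part on the 2 undetected arrays, and the call ended when they were left out (−0.53, adjusted p = 0.207) or when an exact permutation test replaced limma (adjusted p = 0.131). It also ended when any of 7 of the 10 arrays was left out in turn (control replicates 1, 2, 3 and 5 and lenvatinib replicates 1, 2 and 5), with adjusted p between 0.0563 and 0.0743. With normexp background correction, a model-based correction that needs no detection limit, the change was −0.09 (adjusted p = 0.0664), and with no scaling between arrays it was 0.52, while the median of all tested probes moved to 1.30.

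MiR-548w, which carries the common AAAGUAA seed, gave no such difference. It stood 1.83, 1.58, 2.81, 3.53 and 4.47 above the blank mean on control arrays and 7.05, 8.54, 3.10, 9.61 and 0.31 above it on lenvatinib arrays, with control replicate 2 and lenvatinib replicates 3 and 5 under the limit. Its normalized log2 intensities were 1.80, 1.63, 2.19, 2.23 and 2.92 in control and 2.29, 2.47, 1.63, 2.59 and 1.63 in lenvatinib arrays, and the groups overlapped throughout. The change was −0.03 ± 0.27 log2 (SE, 95% interval −0.63 to 0.57; limma, adjusted p = 0.954), an interval that includes changes of up to about 0.6 log2 either way.

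**Figure D3:**
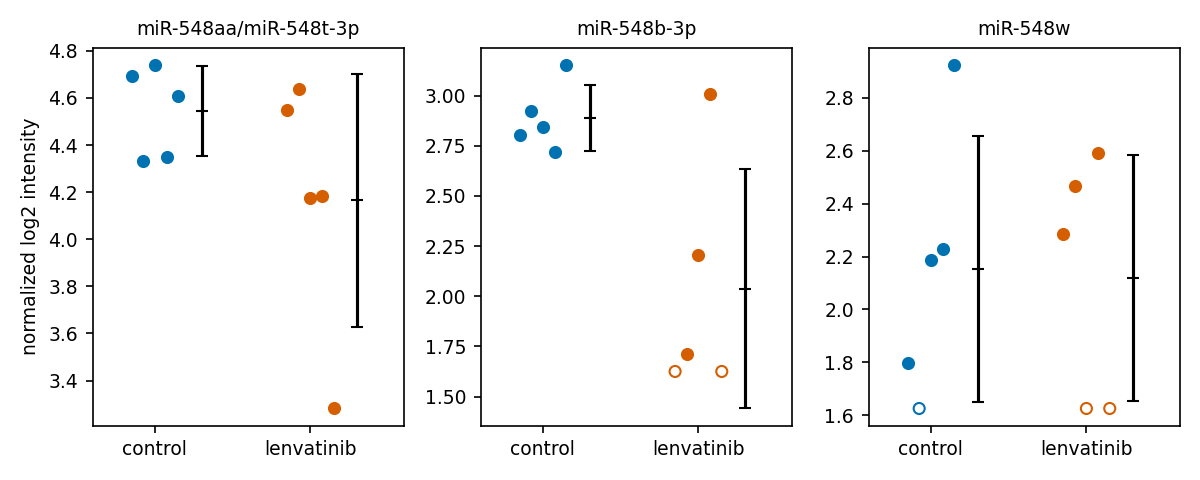
Normalized log2 intensity (vertical axis, a separate scale in each panel) of the 3 tested miR-548 probes on 5 control and 5 lenvatinib arrays, with the mean and SD as bars and undetected arrays as open circles. MiR-548b-3p has 4 lenvatinib arrays below all control arrays and 2 of them at 1.63, the value given to undetected probes, while the groups overlap for the other 2 probes.

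The median change of the 3 tested members was −0.38 log2, beside −0.03 over all 1346 tested probes, whose middle values ran from −0.32 to 0.31 between the quartiles. Since a probe entered this test only if detected on at least 5 arrays, the 3 do not stand for the other 70 members. Where detection on 1 array was enough, 16 members entered and none was called by limma, with 1 at an unadjusted p under 0.05; the background was 15.1% of 1924 probes called (8.52% higher and 6.6% lower) and 25% at an unadjusted p under 0.05. Of these 16, 5 had a change above 0 and 11 below 0, with a median of −0.05 (all probes −0.0042).

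All 73 members were fitted with normexp and no detection filter, an alternative chosen after seeing the data. None of the 73 was called by limma, with a lowest adjusted p of 0.0784, while 11.3% of all 2565 probes were called (6.43% higher and 4.91% lower). At an unadjusted p under 0.05 there were 5 members, against 21.9% of all probes. The changes ran from −0.19 to 0.09 log2, 33 above and 40 below 0, with a median of −0.0058 (all probes 0.00019). Dim values are compressed toward 0 on this scale, which adds 50 to each value, so these small changes do not bound the true ones.

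**Figure D4:**
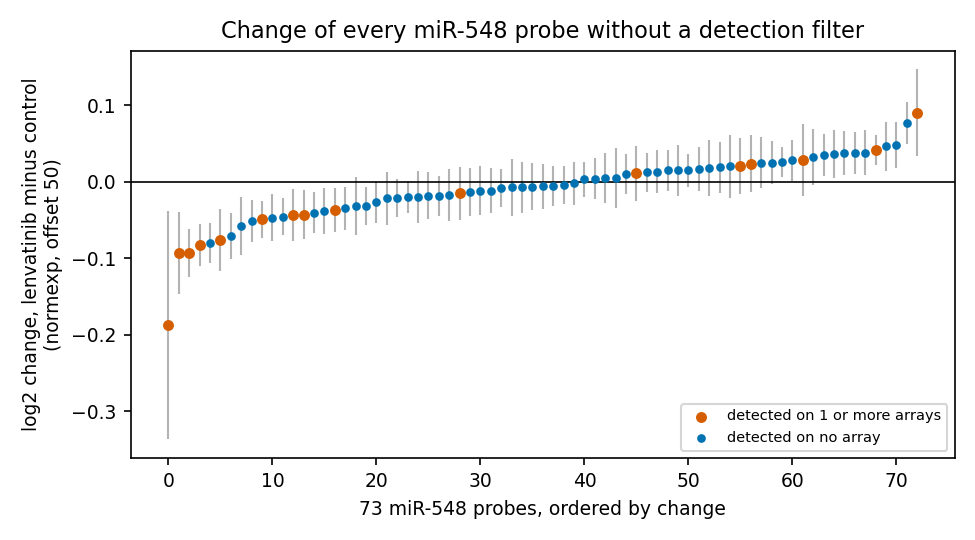
Log2 change, lenvatinib minus control, of all 73 miR-548 probes after normexp correction with an offset of 50 and no detection filter (vertical axis), in order of change, with the standard error as grey lines. Orange points are the 16 members detected on at least 1 array and blue points the 57 detected on none; all lie between −0.19 and 0.09 and none was called.

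Of 20 pairs of probes whose miRNAs share an unbroken run of at least 18 bases, 13 had neither probe detected on any array, 7 had 1 of them detected and none had both. The 2 pairs described next are of the second kind. Members other than the 3 tested ones were singled out after their values were seen. MiR-548ak, which shares 20 of its 21 bases with miR-548w in one run, lay below the blank mean on 10 of 10 arrays, from −1.70 to −3.94 on control and from −0.83 to −5.43 on lenvatinib arrays. MiR-548w lay above the blank mean on all 10. MiR-548ak thus read as undetected on every array on which miR-548w passed the limit.

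The same was seen for miR-548k and its shorter relative. MiR-548k stood 3.05, 1.70, 2.59, 3.05 and 1.61 above the blank mean on control arrays and 1.62, 4.79, 3.96, 4.60 and −0.75 from it on lenvatinib arrays. It passed the limit on 3 control arrays and 1 lenvatinib array. MiR-548av-5p, whose 18 bases all lie within miR-548k, was below the blank mean on 10 of 10 arrays, by −0.62 to −7.41. A pair of probes is no measure of relative abundance, as each was set only against the blanks.

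**Figure D5:**
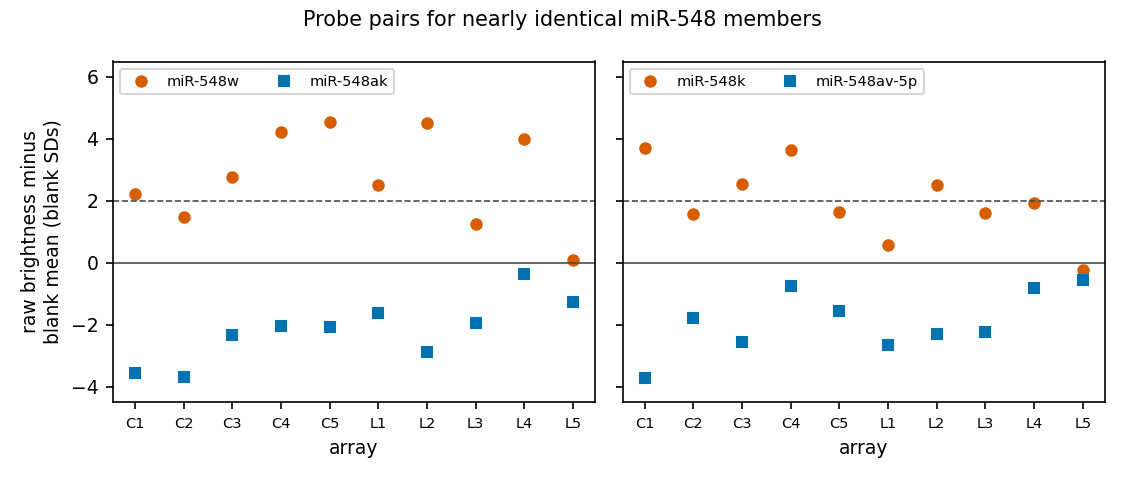
Raw brightness minus the blank mean in SDs of the blanks (vertical axis) on the 5 control (C) and 5 lenvatinib (L) arrays for miR-548w and miR-548ak (left) and miR-548k and miR-548av-5p (right), with the detection limit of 2 SD dashed. MiR-548ak and miR-548av-5p lie below the blank mean on all 10 arrays, while miR-548w lies above it on all 10 and miR-548k on 9.

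The probe named for both miR-548ai and miR-570-5p passed the limit on 3 control arrays and 1 lenvatinib array. It stood 2.81, 1.76, 3.56, 1.53 and 3.46 above the blank mean on control arrays and 8.73, 1.89, 3.31, 1.36 and 3.10 on lenvatinib arrays. Replicate 1 of the lenvatinib group was the only one of its group over the limit. MiR-548ag, with the same seed, passed on none and was below the blank mean on 4 arrays.

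The arms of the miR-548aq hairpin lay on opposite sides of the blank mean on most arrays, but both lay below it on 2 lenvatinib arrays. MiR-548aq-5p passed on 3 control arrays and 1 lenvatinib array, at 2.68, 6.10, 1.40, 1.23 and 2.61 from the blank mean in control and 5.80, −0.72, 4.56, −1.11 and 3.86 in lenvatinib arrays. MiR-548aq-3p was below the blank mean on 10 of 10 arrays. The probe for miR-548g-5p, miR-548x-5p and miR-548aj-5p, the reverse complement of miR-548aq-3p, was below the blank mean on 8 arrays and passed the limit only on lenvatinib replicate 1, at 11.5. MiR-548v passed on 1 control and 2 lenvatinib arrays, with 11.98 on lenvatinib replicate 5, and miR-548q on 2 lenvatinib arrays.

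Other miRNAs of MADE1 origin were read for context, from a list drawn from textbook knowledge. The 4 probes for miR-570-3p, miR-579-3p, miR-579-5p and miR-603 were all detected on at least 5 arrays, and miR-579-5p on all 10. None was called higher and 1 was called lower, beside 12.1% and 9.36% of all tested probes, with a median of −0.23 log2. MiR-603 was at 2.87 ± 0.32 log2 (SD, n = 5) in control and 2.06 ± 0.47 (SD, n = 5) in lenvatinib arrays, a change of −0.81 ± 0.24 (SE; limma, adjusted p = 0.0293). It was detected on 5 control and 3 lenvatinib arrays, and like that of miR-548b-3p its call ended with undetected arrays left out (−0.48, adjusted p = 0.298) and under the exact permutation test (adjusted p = 0.0893). It was called lower under 13 of 28 alternatives and higher under 1, with no scaling (0.60, adjusted p = 0.0394). Leaving out control replicate 1, 2 or 4 or lenvatinib replicate 1, 3 or 4 also ended the call. The other 3 did not pass the test, at −0.22 ± 0.25 (miR-570-3p), 0.03 ± 0.21 (miR-579-3p) and −0.24 ± 0.16 log2 (miR-579-5p).

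MiRNAs derived from other transposons were widely detected in these cells. Of 38 such probes, 19 passed the limit on every one of the 10 arrays and 1 passed on none, where the miR-548 counts were 1 and 57 of 73. Over all 2565 miRNA probes, 868 passed on all 10 arrays and 641 on none. The list was chosen with earlier results known and was not matched to the family for base composition. The part of transposon origin in detection was not tested. Of the 27 tested, 3 rose, 3 fell and 21 did not pass, with a median of 0.09 log2, beside 12.1% of all tested probes called higher and 9.36% lower. Without lenvatinib replicate 5 the list had 5 higher, and without control replicate 2, 3 or 5 it had 1 lower. MiR-652-5p rose by 0.91 ± 0.15 log2 (SE; limma, adjusted p = 0.000932) and miR-421 by 0.57 ± 0.14 (adjusted p = 0.0117). MiR-378a-3p, which comes from an intron of PPARGC1B, changed by −0.87 ± 0.14 (adjusted p = 0.000851). MiR-582-5p changed by −1.29 ± 0.37 (adjusted p = 0.0287), and by −0.87 without lenvatinib replicate 5, and was called under 19 of 31 alternatives.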

How the data were processed

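Per the file headers, the deposited per-array files give raw spot intensity, a background-subtracted intensity and a globally normalized intensity. Tested on the values, the authors' background-subtracted intensity was the raw intensity minus a trimmed mean of the blanks (5% dropped from either end), left empty at or under 2 SD above it, and this rule matched all 2565 miRNA probes on each array. The authors' table of the whole series holds normalized intensities for 803 probes, of which 1 is a miR-548 probe. The scanner and its software were not given in the sources used here. Here, each undetected probe took the smallest detected value on its own array, and intensities were log2 transformed and quantile normalized, and the 1346 probes detected on at least 5 of 10 arrays were fitted with limma 3.58.1 (lmFit, eBayes, two-sided, R 4.3.3), with Benjamini-Hochberg adjustment over all of them and a threshold of 0.05. The number of arrays limits the precision. The script was tested on simulated data. Named in the tests are members passing the threshold, present on all arrays, or highest or most changed among those tested, and up to 4 miRNAs by smallest p from each context list. Members, lists and tests were chosen with earlier results of these data known. Alternatives covered scaling, background, undetected probes, detection limits, filters, the test, the replicate block and leaving out each array. Mature sequences were matched by miRNA name to RefSeq.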

Additional observations from a re-analysis of the deposited data

Results flagged for a closer look

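Each group of 5 arrays was searched for a highest or lowest array standing apart by Dixon's criterion, and 4 of 46 groups of values had one, where chance gives about 1 in 20. The blank mean of lenvatinib replicate 5 was 85.5, beside 62.2 to 64.9 on the other lenvatinib arrays. The median miR-548 probe of lenvatinib replicate 3 lay at −1.27 blank SDs, the lowest of its group. The probe for miR-548ai and miR-570-5p stood 8.73 above the blank mean on lenvatinib replicate 1, with 1.36 to 3.31 on the others. The probe for miR-548ax stood 22.6 above the blank mean on control replicate 2 and below the blank mean on the other 9 arrays. That single spot raised the family's share of all detected subtracted brightness on that array from 0.0173% to 0.0321%, where the other control arrays had 0.0182% to 0.0199%. Causes were not tested.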

How the results depend on the processing

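Of 28 alternatives that gave miR-548b-3p a value, 27 kept its direction, 12 called it lower and 1 called it higher. The number of members called lower was 1. It was 0 with no scaling, with normexp (with or without a detection filter), with no background correction and with undetected probes at a lower floor or left out. It was also 0 with detection on at least 1 array, under the exact permutation test and under the replicate block. The whole-series table, detection on all 10 arrays and one raw limit for all arrays gave 0 too. MiR-548b-3p was not in those fits, so they could not test its call. Leaving out each array gave 0 to 1 calls. The labels state no factor besides the group, and the replicate numbers were not taken as pairs. With group means removed, same-numbered arrays correlated at 0.00085 to 0.140, 4 of 5 over 0.1. Of the control arrays, 3 of 5 correlated best with their own number, so these values do not exclude a pairing. With the replicate block miR-548b-3p kept −0.85 but was no longer called (limma, adjusted p = 0.0609). The calls over all probes went from 289 to 257. The number called higher was 0, but 3 with no scaling and 1 with one raw limit. The median change was −0.38, but 0.93 with no scaling, 0.30 with one raw limit and −0.0058 with normexp and no filter, and −0.50 to −0.16 without single arrays. With no scaling the signs turned for miR-548aa/miR-548t-3p (0.93), miR-548b-3p (0.52), miR-548w (1.35), miR-570-3p (1.17), miR-579-5p (1.08), miR-603 (0.60), miR-378a-3p (0.68) and miR-582-5p (0.30), beside an all-probe median of 1.30 with 1287 probes higher and 2 lower. One raw limit turned miR-548aa/miR-548t-3p to 0.30 (limma, adjusted p = 0.000624). That limit was 92.1, and the raw brightness of this probe was 45.0 to 51.4 on control and 93.0 to 104 on lenvatinib arrays. All its control values were thus the value given to undetected probes, so this setting cannot decide a direction. The call higher and the median under one raw limit come from this probe alone. MiR-548w also turned to 0.0025 (median scaling), 0.059 (75th percentile), 0.12 (spike controls), 0.084 (cyclic loess), 0.0054 (global normalization), 0.20 (undetected left out) and 0.043 (array weights), and ran from −0.16 to 0.16 without single arrays. MiR-579-3p turned to −0.014 with normexp with or without the filter, to −0.016 with no background correction, and ran from −0.091 to 0.16 without single arrays. Scaling to spike controls gave 70.4% of all calls higher, against 56.4%. Members detected per array went from 6 to 4.20 (3 SD), 0 (one raw limit) and 1.20 (highest subtracted limit, chosen after seeing the data) in control, and from 4.20 to 2.20 (3 SD), 1.20 (one raw limit) and 2.80 (highest subtracted limit) in lenvatinib arrays, so the last turned the order of the groups. The one raw limit and the highest subtracted limit were applied to values not scaled between arrays. Other causes were not tested. Low signal over background limits every member but miR-548aa/miR-548t-3p.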
